A study of Mus musculus with 6 samples.

Results

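The angiopoietin and Notch genes described here are 10 of the 33696 genes in the count matrices: the ligands Angpt1 and Angpt2, their receptor Tek and the related receptor Tie1, the Notch ligands Dll4 and Jag1, the receptors Notch1 and Notch3, and the Notch target genes Hey1 and Heyl. They were taken by name, and each name matched 1 row. The libraries are droplet single-cell RNA libraries (10x Genomics) of the genioglossus, a muscle of the tongue, from male mice. The OSA group (OSA-4W in the labels, an obstructive sleep apnoea model) and the control group were both collected at week 4 after modelling, and every library carries the label batch 1. Count matrices were used for OSA libraries 1, 2 and 3 and for control library 2, while control libraries 1 and 3 were not analysed here. The way the model was produced, the strain and the age of the mice are not given in the sources used here. Nor is it stated whether libraries come from different mice, and p-values therefore reflect only how these libraries vary, which may be technical.

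In vessels, Angpt1 activates the receptor tyrosine kinase Tie2, the product of Tek, and Angpt2 can act as its antagonist in a setting-dependent way. Tie1 is a relative of Tie2 that modulates its signal. In Notch signalling a ligand on one cell, such as Dll4 on endothelium or Jag1 on endothelium and mural cells, releases the intracellular part of a receptor on the neighbouring cell. That part acts in the nucleus with Rbpj and switches on genes of the Hes and Hey families, a step that takes part in arterial identity, sprouting and smooth muscle maturation. Mural cells, the pericytes and smooth muscle cells around vessels, are the main users of Notch3.

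The OSA libraries held 15743, 12618 and 14327 barcodes with 78935592, 74007952 and 82184912 unique molecules (UMIs), and control library 2 held 13719 barcodes with 70217448 UMIs. Any pair of these libraries shared 52 to 67 cell barcodes. Barcodes were clustered without the 10 genes and their pathway lists, and classes were named from marker genes, so every name below means "X-like". The labels call the material skeletal muscle cells, yet no class could be named from myofibre markers. The named classes were vessel, fibroblast, tenocyte, nerve and immune cells and, of the muscle lineage, satellite-like cells, the stem cells of muscle, at 298, 266 and 308 cells in the OSA libraries and 259 in control 2. After doublets were removed, OSA libraries 1, 2 and 3 held 1696, 1009 and 668 arterial endothelial-like cells and control 2 held 1213, and capillary endothelial-like cells numbered 4603, 2852 and 2720 in the OSA libraries and 3717 in control 2. Venous endothelial-like cells were few, at 111, 61 and 177 in the OSA libraries and 109 in control 2. Vascular smooth muscle-like cells numbered 547, 366 and 441 in the OSA libraries and 638 in control 2, and pericyte-like cells 501, 334 and 304 in the OSA libraries and 422 in control 2.

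The arterial and capillary endothelial-like classes were close neighbours. The 12 capillary markers summed to 26462, 25896 and 25181 CPM (UMIs scaled to a class total of 1000000) in arterial endothelial-like cells of the OSA libraries and 23503 in control 2, against 26924, 25133, 25055 and 25169 CPM in capillary endothelial-like cells of the same libraries. Arterial markers set them apart, with sums of 1944 to 2245 CPM in the arterial endothelial-like class and 1112 to 1376 CPM in the capillary endothelial-like class. A further 904, 1019 and 770 barcodes in the OSA libraries and 940 in control 2 carried both mural and endothelial RNA and entered neither kind of class. Neutrophil markers in capillary endothelial-like cells summed to 31.5, 614 and 40.9 CPM in the OSA libraries, against 6.17 CPM in control 2, so OSA library 2 stood apart in RNA of another cell type. Fibroblast markers in the same class summed to 559, 615 and 907 CPM in the OSA libraries, against 393 CPM in control 2. The part of such RNA in the results below was not tested.

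**Figure D1:**
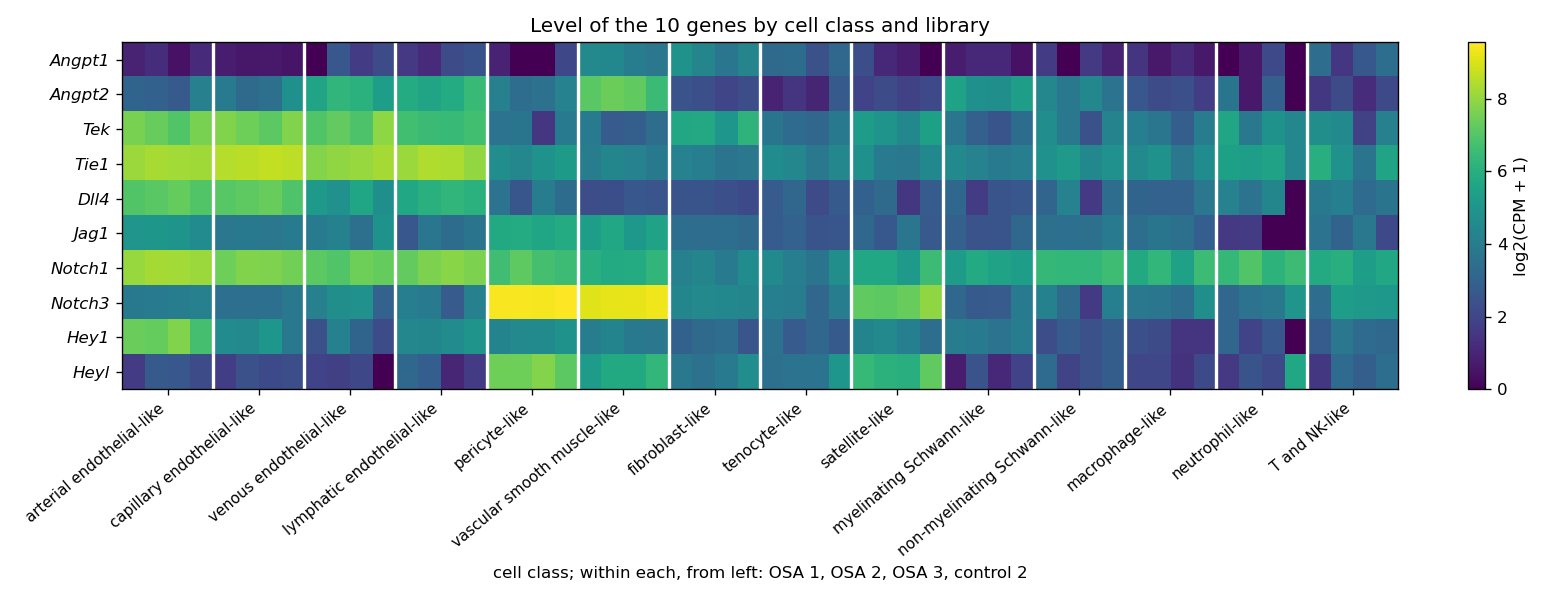
Level of each of the 10 genes in each named class, as log2(CPM + 1) of the class's summed counts, with 1 column per library (OSA 1, OSA 2, OSA 3, control 2 from the left). Notch3 and Heyl are high in pericyte-like and smooth muscle-like cells and in satellite-like cells, Tie1 and Dll4 in the endothelial-like classes, and Hey1 in arterial endothelial-like cells.

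Levels are given as the CPM of a class's summed UMIs in each library. Differences are OSA minus control log2 changes with their standard error, from edgeR's quasi-likelihood test on counts scaled by the trimmed mean of M values (TMM), and adjusted p-values are Benjamini-Hochberg values over all genes tested in the class. The test sets 3 OSA libraries against 1 control library, so its 2 residual degrees of freedom come from the OSA group and the control is taken to vary in the same way. In the 6 vessel classes 53 tests of the 10 genes were possible, and edgeR called none at an adjusted p under 0.05. At an unadjusted p under 0.05 it gave 9 of 53, and DESeq2 called none. The share of all genes called was low too: 0% in arterial endothelial-like, 0.0131% in capillary endothelial-like, 0.304% in venous endothelial-like, 0.141% in lymphatic endothelial-like, 0.0304% in pericyte-like and 0.16% in vascular smooth muscle-like cells. Of all genes, the unadjusted threshold was passed by 4.91% in arterial, 6% in capillary, 7.07% in venous and 5.84% in lymphatic endothelial-like cells, 5.2% in pericyte-like cells and 6.48% in vascular smooth muscle-like cells.

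The control value lay outside the range of the 3 OSA libraries for 36 of the 53 measurements. It did so for 4 of 9 of the genes in arterial endothelial-like cells, where 51.3% of all genes did. The capillary count was 6 of 9, beside 53% of all genes, and in pericyte-like cells 8 of 9, beside 48.6%. In vascular smooth muscle-like cells it was 7 of 10, beside 50.2%, in venous endothelial-like cells 7 of 8, beside 52.8%, and in lymphatic endothelial-like cells 4 of 8, beside 51.4%.

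Angpt1, the activating ligand, reached at most 28.4 CPM in any library of any class. Fibroblast-like cells held most of its UMIs, with 28.4, 19.1 and 12.6 CPM in the OSA libraries and 19.3 CPM in control 2, so the control lay inside the OSA range. Vascular smooth muscle-like cells had 21.7, 20.9 and 15.5 CPM in the OSA libraries and 12.7 CPM in control 2. These 2 classes overlapped in level, and all 3 OSA values in smooth muscle-like cells were above the control. The log2 change there was 0.60 ± 0.33 (SE; edgeR adjusted p = 0.844) and in fibroblast-like cells 0.07 ± 0.35, so neither passed the test. Fibroblast-like cells carried 62.2% of all Angpt1 UMIs in OSA library 1 and 67.8% in OSA library 2 and 68.6% in OSA library 3, against 66.2% in control 2.

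Angpt2, the ligand that can oppose Angpt1, was highest in vascular smooth muscle-like cells, where its lowest library was above every library of any other named class. There it was 137, 168 and 146 CPM in the OSA libraries and 90.1 CPM in control 2. Every OSA library was above the control, and the log2 change of 0.73 ± 0.24 did not pass edgeR's test (adjusted p = 0.230). Without OSA library 3 it did (log2 change 0.72 ± 0.18, edgeR adjusted p = 0.00738), while the other alternatives gave adjusted p-values of 0.185 to 0.981. Capillary and arterial endothelial-like cells showed the opposite order of values. In capillary endothelial-like cells Angpt2 had 14.5, 8.81 and 10.4 CPM in the OSA libraries and 26.7 CPM in control 2, and in arterial endothelial-like cells 7.47, 6.89 and 5.45 CPM in the OSA libraries and 16.6 CPM in control 2.

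In neither endothelial class did the Angpt2 groups overlap. The log2 changes of Angpt2 were -1.18 ± 0.24 in capillary endothelial-like cells (edgeR adjusted p = 0.234) and -1.25 ± 0.30 in arterial endothelial-like cells (edgeR adjusted p = 0.362). These calls turned on the library left out: in capillary endothelial-like cells the edgeR adjusted p for Angpt2 was 4.20e-06 without OSA library 1 and 3.91e-07 without OSA library 3, but 0.0794 without OSA library 2. In arterial endothelial-like cells it was 0.0459 without OSA library 1, 0.00641 without OSA library 3 and 0.295 without OSA library 2, with up to 0.996 under the other alternatives. With no filter on low counts the adjusted p was 6.39e-05 in capillary and 0.0488 in arterial endothelial-like cells, and over the remaining alternatives DESeq2 gave the lowest capillary value, 0.0760, and the highest was 0.273. Smooth muscle markers, which also mark cells rich in Angpt2, summed to 355, 328 and 292 CPM in capillary endothelial-like cells of the OSA libraries and 355 CPM in control 2, and their part in the Angpt2 values was not tested.

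**Figure D2:**
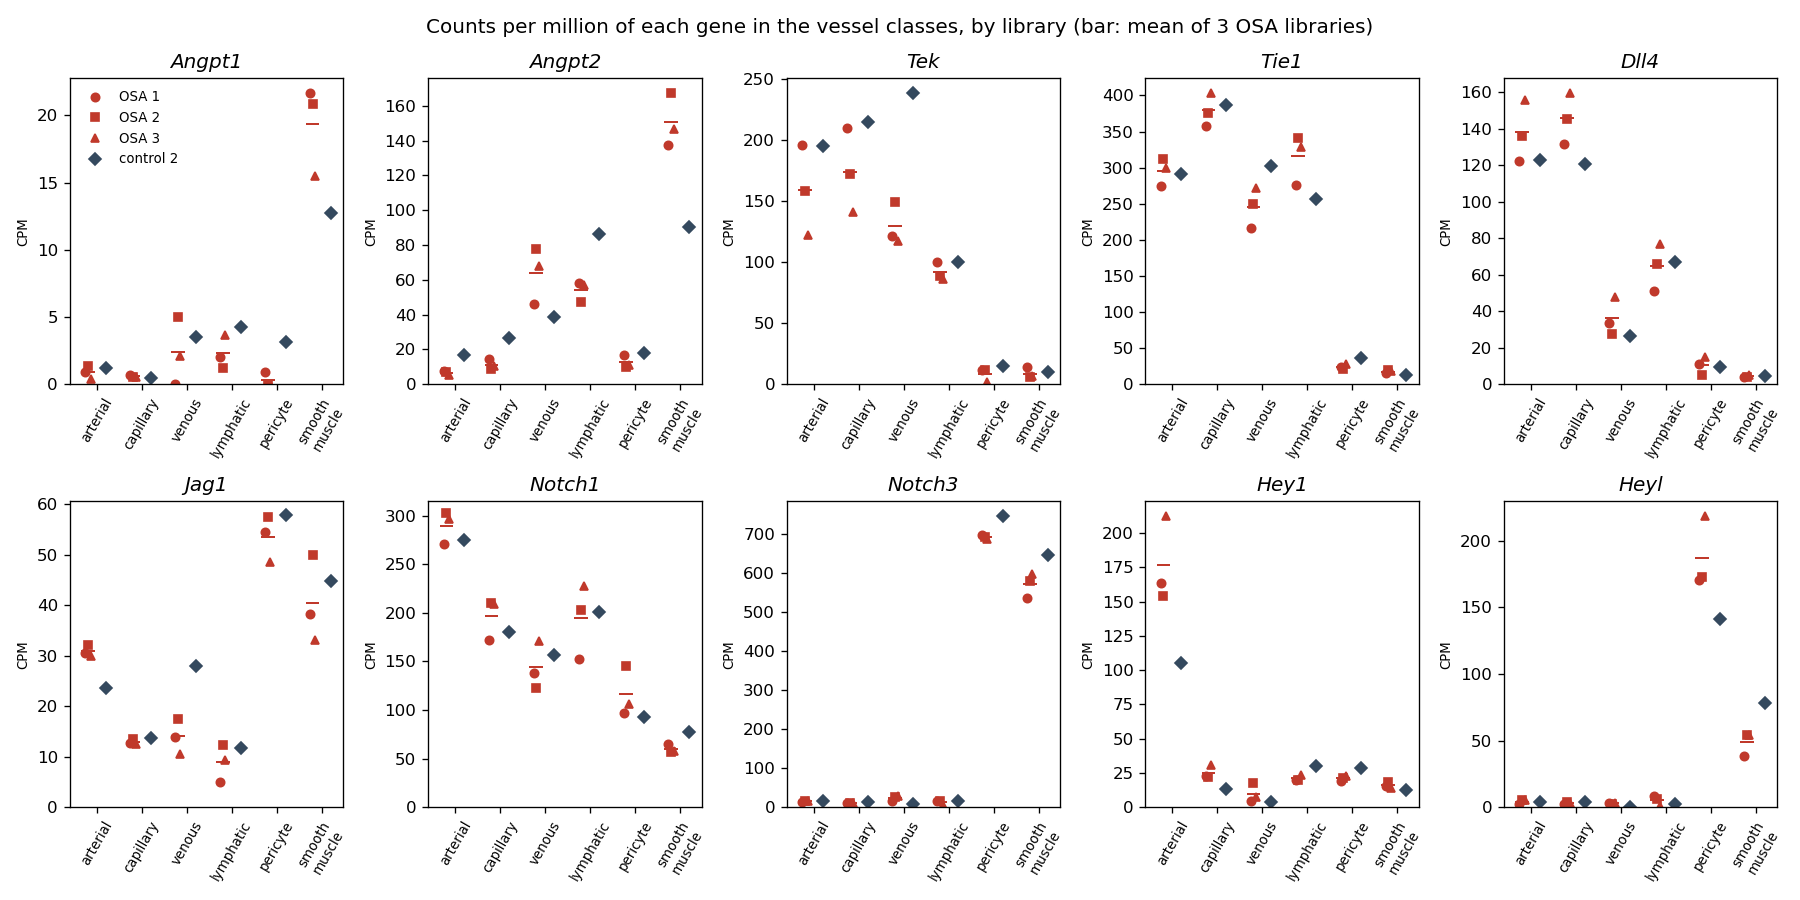
CPM of each of the 10 genes in the 6 vessel classes, 1 point per library with OSA libraries left of control 2 and a bar at the OSA mean. Angpt2 of the OSA libraries lies below the control in arterial and capillary endothelial-like cells and above it in vascular smooth muscle-like cells.

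Shares of cells gave the same order of libraries for Angpt2 in the endothelium. With every cell thinned to 2000 UMIs, 2.56%, 1.71% and 1.83% of capillary endothelial-like cells of the OSA libraries had an Angpt2 UMI, against 4.63% in control 2 (exact 95% interval 3.88% to 5.47%). The control interval covers counting error only. Before thinning, the median depths of these cells were 3624, 4092 and 3657 UMIs in the OSA libraries and 3722 in control 2. The share in macrophage-like cells, a type not known for Angpt2, was 0.922%, 0.222% and 0.340% in the OSA libraries and 0.459% in control 2, at median depths of 8040, 6032, 7426 and 6830 UMIs. The capillary endothelial-like shares were above that background in all 4 libraries. Thinning left out 1053, 574 and 913 shallower capillary endothelial-like cells in the OSA libraries and 908 in control 2.

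Angpt2 was below the control in all 3 OSA libraries in 8 of the 8 arterial and capillary sub-clusters with at least 1000 barcodes, which come from the same libraries and are no replicates (1 of them had low UMIs and was left out of the named classes). The share of all genes doing so was not computed for sub-clusters. At class level the control lay outside the OSA range for 51.3% of all genes in arterial and 53% in capillary endothelial-like cells. Sub-cluster counts, here and below, are therefore not read as a result about these genes. In lymphatic endothelial-like cells Angpt2 had 58.3, 47.0 and 56.9 CPM in the OSA libraries and 86.3 CPM in control 2, with no overlap and a log2 change of -0.63 ± 0.30 (edgeR adjusted p = 0.828). Venous endothelial-like cells gave 46.1, 77.4 and 67.8 CPM in the OSA libraries and 38.4 CPM in control 2, from 33, 31, 64 and 22 UMIs. All 3 OSA libraries were above the control in that class, and the log2 change of 0.74 ± 0.41 did not pass edgeR's test (adjusted p = 0.774). Pericyte-like cells had 16.9, 9.60 and 11.2 CPM in the OSA libraries and 17.9 CPM in control 2.

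Within vascular smooth muscle-like cells, Angpt2 sat mostly in a sub-cluster of 206 cells led by Fst, Frmpd4 and Actg2. Fst encodes follistatin, an inhibitor of activins, and Actg2 a smooth muscle actin. The sub-cluster made up 10.4%, 15.6% and 11.3% of the vascular smooth muscle-like cells of the OSA libraries and 6.58% in control 2, a difference of 5.86 percentage points (exact two-sided permutation test, p = 0.5, where 0.25 is the smallest p this design allows). It carried 76.6%, 84.5% and 75.4% of the Angpt2 UMIs of the class in the OSA libraries, against 57.2% in control 2. Inside it Angpt2 was 656, 589 and 567 CPM in the OSA libraries and 536 CPM in control 2, a log2 change of 0.23 ± 0.30. Outside it Angpt2 was 38.3, 34.1 and 44.7 CPM in the OSA libraries and 42.7 CPM in control 2, so the control lay inside the OSA range and the log2 change was -0.13 ± 0.26 (edgeR adjusted p = 0.999). The sub-cluster was examined after its values were seen. Some heat-shock genes, which handling can raise, also had higher values in the whole class: Hspa1a had 310, 477 and 516 TMM-scaled CPM in the OSA libraries and 253 in control 2 (edgeR adjusted p = 0.255). Of the 15 dissociation and immediate early genes, to which Hspa1a belongs, 7 were higher and 8 lower in value there (median log2 change -0.02). Fibroblast markers in vascular smooth muscle-like cells summed to 706, 901 and 1053 CPM in the OSA libraries and 516 CPM in control 2. The part of heat-shock and of fibroblast RNA in the Angpt2 values was not tested.

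**Figure D3:**
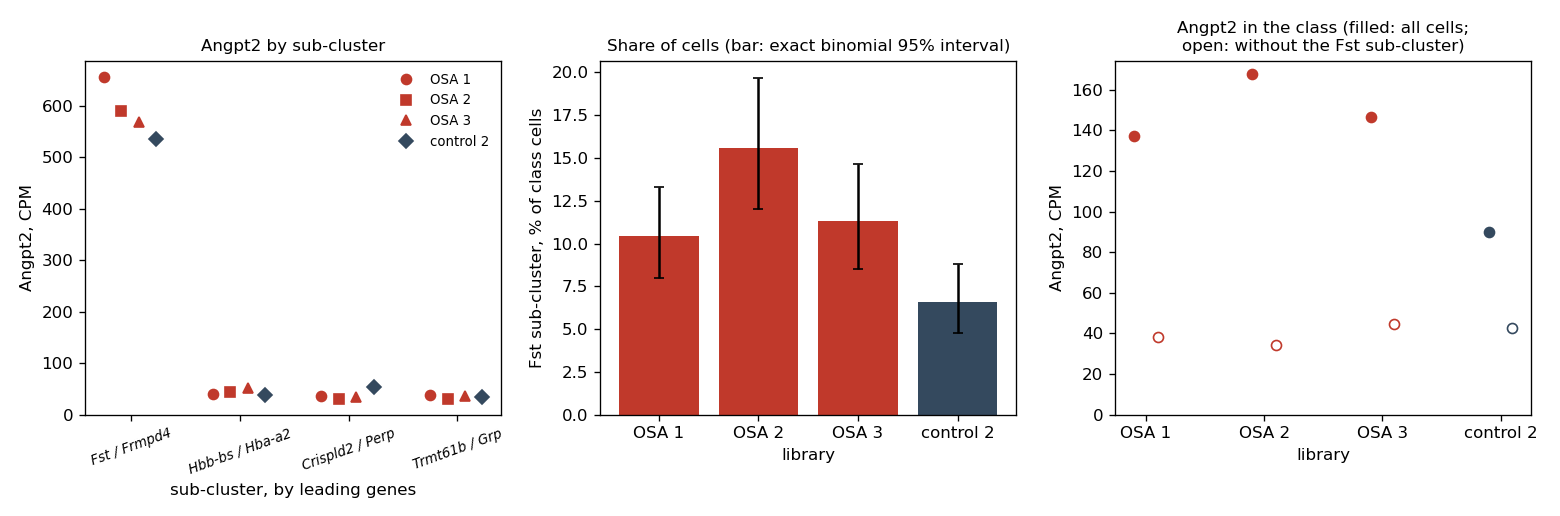
Angpt2 in vascular smooth muscle-like cells by library: CPM in each sub-cluster named by its leading genes (left), the Fst sub-cluster as a percentage of the cells of the class with exact binomial 95% intervals (middle), and CPM of the whole class and of the class without that sub-cluster (right). The 3 OSA libraries lie above control 2 in the Fst sub-cluster, in the share and in the whole class, while without the sub-cluster the control lies among them.

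Whether the Angpt2 values differed between classes was tested on the within-library difference of log2 CPM (limma, Benjamini-Hochberg over all genes kept in both classes). The OSA effect in arterial endothelial-like minus that in vascular smooth muscle-like cells was -1.96 ± 0.27 for Angpt2, which passed the test (limma adjusted p = 0.0126), in a comparison where 0.0521% of all genes were called. Without the Fst sub-cluster the difference was -1.10 ± 0.37 and did not pass (limma adjusted p = 0.842). In capillary endothelial-like minus vascular smooth muscle-like cells it was -1.94 ± 0.33 (limma adjusted p = 0.0693, with 0.232% of all genes called), and it passed without OSA library 1 (limma adjusted p = 0.000398) and without OSA library 2 (4.26e-09) but not without OSA library 3 (0.172). For capillary minus venous endothelial-like cells the Angpt2 difference was -1.89 ± 0.50 (limma adjusted p = 0.259, with 0.0469% of all genes called; adjusted p = 0.0146 without OSA library 2). All 15 pairs of vessel classes were compared, 11 of them added after the data had been seen, and 2 of 126 differences among the 10 genes were called. In the remaining pairs the share of all genes called was 0.0924% for capillary minus arterial, 0.0118% for arterial minus venous, 0.0102% for capillary minus pericyte-like, 0.0104% for arterial minus pericyte-like, 0.0505% for venous minus pericyte-like and 0.0105% for lymphatic minus smooth muscle-like cells, and 0% in the other 4 pairs.

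Tek encodes Tie2, the angiopoietin receptor. Its levels overlapped between capillary, arterial and venous endothelial-like cells and were lower in lymphatic endothelial-like cells. Fibroblast-like cells came next, at 50.5, 53.0 and 31.5 CPM in the OSA libraries and 73.0 CPM in control 2 (log2 change -0.67 ± 0.25). Capillary endothelial-like cells had 210, 172 and 141 CPM in the OSA libraries and 215 CPM in control 2, and arterial endothelial-like cells 196, 159 and 123 CPM in the OSA libraries and 195 CPM in control 2. In both classes OSA library 3 was the lowest and OSA library 1 close to the control, with log2 changes of -0.25 ± 0.19 (edgeR adjusted p = 0.909) and -0.24 ± 0.20. Venous endothelial-like cells differed more in value, at 122, 150 and 118 CPM in the OSA libraries and 239 CPM in control 2. The venous groups did not overlap, and the log2 change of -0.87 ± 0.29 did not pass edgeR's test (adjusted p = 0.257, and 0.112 to 0.999 over the alternatives).

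Tie1, an endothelial receptor with no well-defined ligand of its own, had its highest level in capillary endothelial-like cells, where every library was above those of the other classes. It was 358, 376 and 404 CPM there in the OSA libraries and 387 CPM in control 2, with a log2 change of 0.03 ± 0.20. Arterial endothelial-like cells had 274, 311 and 299 CPM in the OSA libraries and 291 CPM in control 2. In both classes the control lay inside the OSA range.

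Of the other genes of the angiopoietin and Tie pathway, 9 of 10 could be tested in arterial endothelial-like and in capillary endothelial-like cells, and edgeR called none in any vessel class. At an unadjusted p under 0.05 it gave 1 in the lymphatic class, 1 in the pericyte class and 0 in the other vessel classes. DESeq2 called no gene of any of the pathway lists in a vessel class. Ptprb, a phosphatase that acts on Tie2, had 1095, 1237 and 1067 TMM-scaled CPM in capillary endothelial-like cells of the OSA libraries and 1061 in control 2, a log2 change of 0.09 ± 0.23. Foxo1, a transcription factor restrained by Tie2 signalling, had 120, 126 and 115 TMM-scaled CPM in the OSA libraries and 124 in control 2. In capillary endothelial-like cells the median log2 change of the tested genes of this list was -0.02, and that of all genes 0.02. Ptprb was lower in pericyte-like cells, at 71.2, 74.5 and 74.2 TMM-scaled CPM in the OSA libraries and 116 in control 2 (log2 change -0.67 ± 0.26). Shc1 was higher in lymphatic endothelial-like cells, at 79.0, 68.0 and 84.2 in the OSA libraries and 47.1 in control 2 (0.72 ± 0.33).

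Dll4, the endothelial Notch ligand that restrains sprouting, and Notch3, the mural receptor, show the 2 sides of the pathway, and the 250 bases before the start of each are printed here to compare them. The sequences are from RefSeq (GRCm38.p6), which held a promoter for 6 of the 10 genes, and lie at chr2:119325534-119325783 on the plus strand for Dll4 and at chr17:32166891-32167140 on the minus strand for Notch3. Capitals mark GGAAG or its reverse complement CTTCC, an extended form of the GGAA core bound by endothelial transcription factors of the ETS family.
Dll4: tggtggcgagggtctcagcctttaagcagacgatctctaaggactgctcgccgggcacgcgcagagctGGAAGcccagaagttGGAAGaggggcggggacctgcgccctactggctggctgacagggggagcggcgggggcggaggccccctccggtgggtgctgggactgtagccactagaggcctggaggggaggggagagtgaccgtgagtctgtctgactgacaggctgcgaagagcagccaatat
Notch3: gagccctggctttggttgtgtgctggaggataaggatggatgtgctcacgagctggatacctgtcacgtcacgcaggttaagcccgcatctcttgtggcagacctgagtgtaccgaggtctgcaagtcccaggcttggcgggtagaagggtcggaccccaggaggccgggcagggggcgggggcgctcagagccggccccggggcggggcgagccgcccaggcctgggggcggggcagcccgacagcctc
The Dll4 window held 2 matches and the Notch3 window 0, and 64.1% of 32851 promoters of the same length held at least 1. Of the other 4 genes with an entry, Tie1 had 6 matches and Tek, Jag1 and Notch1 had 0. Only this extended form was counted, so a window with 0 matches can still hold the shorter GGAA core. The Rbpj core TGGGAA or TTCCCA was found 1 time, in Tie1, and in 21.6% of all promoters. The windows were searched on both strands, and the ETS form and the Rbpj core share the letters GGAA, so a match of one can overlap a match of the other.

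Dll4 was at similar levels in capillary and arterial endothelial-like cells, with lymphatic endothelial-like and then venous endothelial-like cells apart below them. In capillary endothelial-like cells it had 132, 145 and 160 CPM in the OSA libraries and 121 CPM in control 2, and in arterial endothelial-like cells 122, 136 and 156 CPM in the OSA libraries and 123 CPM in control 2. The capillary groups did not overlap, while in arterial endothelial-like cells OSA library 1 was level with the control. The log2 changes were 0.33 ± 0.20 (edgeR adjusted p = 0.896) and 0.22 ± 0.20. In 7 of the 8 large arterial and capillary sub-clusters, which are no replicates, all 3 OSA libraries were above the control.

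Jag1, a ligand of endothelium and mural cells, was highest in pericyte-like and vascular smooth muscle-like cells, which overlapped. Pericyte-like cells had 54.6, 57.6 and 48.6 CPM in the OSA libraries and 58.0 CPM in control 2, and vascular smooth muscle-like cells 38.3, 49.99 and 33.1 CPM in the OSA libraries and 44.8 CPM in control 2. In arterial endothelial-like cells Jag1 was 30.6, 32.1 and 29.995 CPM in the OSA libraries and 23.6 CPM in control 2. Those groups did not overlap, and the log2 change of 0.44 ± 0.23 did not pass edgeR's test (adjusted p = 0.988). Venous endothelial-like cells had the opposite order, at 14.0, 17.5 and 10.6 CPM in the OSA libraries and 27.9 CPM in control 2. The log2 change there was -1.02 ± 0.61, which was not called either.

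Notch1, the main endothelial receptor, was highest in arterial endothelial-like cells, apart from all other classes. It had 270, 302 and 296 CPM there in the OSA libraries and 275 CPM in control 2, and in capillary endothelial-like cells 172, 210 and 209 CPM in the OSA libraries and 181 CPM in control 2. The control lay inside the OSA range in both classes. Notch1 was also measured in pericyte-like cells, at 92.7 to 145 CPM over the 4 libraries.

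Notch3 was highest in pericyte-like cells, then in vascular smooth muscle-like cells and then in satellite-like cells, with no overlap between these classes. Pericyte-like cells had 697, 692 and 686 CPM in the OSA libraries and 746 CPM in control 2, and vascular smooth muscle-like cells 537, 579 and 596 CPM in the OSA libraries and 646 CPM in control 2. All OSA values were below the control in both mural classes, by little: the log2 changes were -0.10 ± 0.25 and -0.18 ± 0.23, and edgeR called neither. In venous endothelial-like cells Notch3 was 16.8, 24.97 and 27.6 CPM in the OSA libraries and 6.98 CPM in control 2, from 12, 10, 26 and 4 UMIs.

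The venous Notch3 groups did not overlap, and the log2 change of 1.73 ± 0.73 did not pass edgeR's test (adjusted p = 0.574). The difference of the OSA effect, venous endothelial-like minus vascular smooth muscle-like cells, was 1.56 ± 0.28 for Notch3 and passed (limma adjusted p = 0.0411, with 0.12% of all genes called). It passed without the Fst sub-cluster (limma adjusted p = 0.0319) and not without OSA library 3 (1.44 ± 0.32, limma adjusted p = 0.0741). Pericyte markers moved with it: in venous endothelial-like cells the 10 markers summed to 205, 182 and 235 CPM in the OSA libraries, against 97.7 CPM in control 2, with 1 marker at 0 in OSA library 2 and in control 2. Smooth muscle markers there summed to 982, 1269 and 880 CPM in the OSA libraries and 766 CPM in control 2. Their part in the Notch3 values was not tested.

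**Figure D4:**
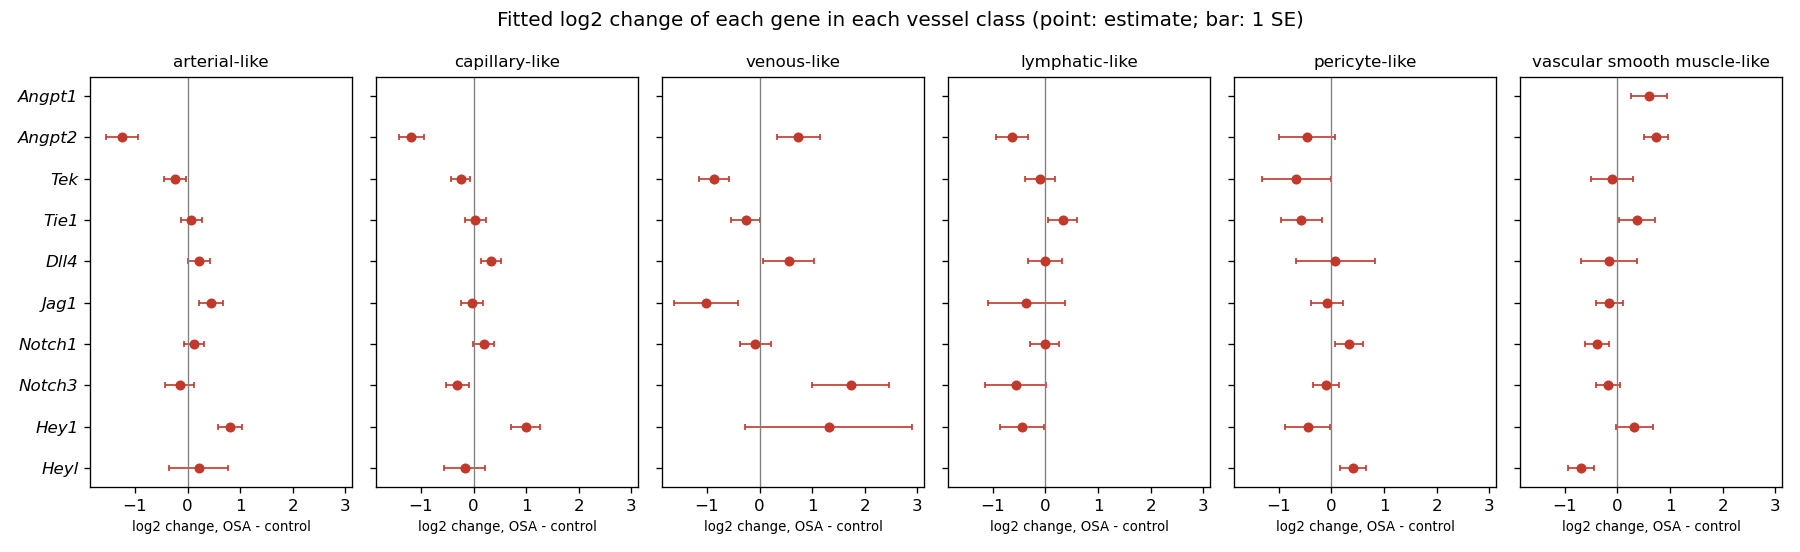
OSA minus control log2 change of each gene in the vessel classes, from edgeR, with bars of 1 standard error. No point passed the adjusted threshold. Angpt2 lies below 0 in arterial and capillary endothelial-like cells and above 0 in vascular smooth muscle-like cells, Hey1 above 0 in arterial and capillary endothelial-like cells, and Heyl below 0 in vascular smooth muscle-like cells.

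Hey1, a Notch target that marks arterial endothelium, was highest in arterial endothelial-like cells, apart from all other classes. It had 163, 154 and 213 CPM there in the OSA libraries and 105 CPM in control 2. In capillary endothelial-like cells it had 23.1, 21.7 and 31.1 CPM in the OSA libraries and 13.3 CPM in control 2. The groups overlapped in neither class, and OSA library 3 was the highest in both. The log2 changes of 0.80 ± 0.22 in arterial and 0.99 ± 0.27 in capillary endothelial-like cells did not pass edgeR's test (adjusted p = 0.549 and 0.452).

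The Hey1 calls also turned on single libraries. In arterial endothelial-like cells the edgeR adjusted p was 0.0166 without OSA library 1, 0.00824 without OSA library 3 and 0.361 without OSA library 2, and the other alternatives gave 0.0649 to 0.684. For the capillary class it was 0.00145 without OSA library 1, 0.00769 without OSA library 3 and 0.0741 without OSA library 2, and with no filter on low counts Hey1 passed as well (edgeR adjusted p = 0.00918). The highest capillary value over the alternatives was 0.489. Thinned to 2000 UMIs, 25.4%, 23.2% and 30.6% of arterial endothelial-like cells of the OSA libraries had a Hey1 UMI, against 15.7% in control 2 (exact 95% interval 13.5% to 18.1%). In macrophage-like cells, at their depths given above, the share was 0.691%, 0.444% and 0.272% in the OSA libraries, against 0 of 218 cells in control 2 (exact 95% upper bound 1.68%). Before thinning, the median depths of the arterial endothelial-like cells were 3666, 4058 and 3723 UMIs in the OSA libraries and 3899 in control 2. All 3 OSA libraries were above the control for Hey1 in 6 of the 8 large arterial and capillary sub-clusters, which are no replicates. This order was not confined to endothelium. Fibroblast-like cells had 6.81, 8.84 and 9.62 CPM in the OSA libraries and 4.67 CPM in control 2 (log2 change 0.91 ± 0.36). Vascular smooth muscle-like cells had 15.7, 18.7 and 13.7 CPM against 12.7 CPM (0.32 ± 0.34). In lymphatic endothelial-like and pericyte-like cells all OSA values were below the control (-0.44 ± 0.42 and -0.45 ± 0.43).

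Heyl, a Notch target of mural cells, was high in pericyte-like, satellite-like and vascular smooth muscle-like cells, whose neighbours in this order overlapped. Pericyte-like cells had 170, 173 and 219 CPM in the OSA libraries and 141 CPM in control 2, with every OSA library above the control (log2 change 0.41 ± 0.25, edgeR adjusted p = 0.991). Vascular smooth muscle-like cells had 38.1, 53.9 and 54.3 CPM in the OSA libraries and 78.3 CPM in control 2. There every OSA library was below the control, also in 4 of 4 smooth muscle sub-clusters, which are no replicates. The log2 change of -0.69 ± 0.24 did not pass edgeR's test (adjusted p = 0.309). It passed without OSA library 3 (log2 change -0.81 ± 0.20, edgeR adjusted p = 0.00585), while the other alternatives gave 0.239 to 1.00. The pericyte-like minus vascular smooth muscle-like difference was 1.10 ± 0.26 for Heyl (limma adjusted p = 0.0822, with 0.113% of all genes called), and it passed without OSA library 2 (limma adjusted p = 0.0149).

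Outside the vessels, satellite-like cells carried Notch receptors and Heyl. Over all 14 named classes 115 tests of the 10 genes were possible, and edgeR called none, with 21 at an unadjusted p under 0.05. In the 8 classes outside the vessels 0% to 2.57% of all genes were called, with 0.141% in satellite-like, 0.0238% in tenocyte-like and 0.0292% in non-myelinating Schwann-like cells. At an unadjusted p under 0.05 there were 3.74% to 14.8% of all genes, with 6.65% in satellite-like, 4.03% in fibroblast-like and 5.79% in neutrophil-like cells. In satellite-like cells Heyl was 83.7, 70.0 and 64.4 CPM in the OSA libraries and 146 CPM in control 2. Notch3 was 147, 140 and 158 CPM in the OSA libraries and 250 CPM in control 2. Notch1 was 49.99, 51.9 and 34.5 CPM in the OSA libraries and 91.1 CPM in control 2.

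All OSA values of these 3 genes were below the control in satellite-like cells. Dissociation and immediate early genes were lower in value for 12 of 15 in the same class (median log2 change -0.34, against 0.02 for all genes; edgeR called none, with 1 at an unadjusted p under 0.05). Their sum in the satellite class was 27762, 13636 and 22795 CPM in the OSA libraries and 27610 CPM in control 2, and their part in the Notch values was not tested. The log2 changes were -0.99 ± 0.24 for Heyl (edgeR adjusted p = 0.0632), -0.73 ± 0.23 for Notch3 (0.239) and -0.99 ± 0.27 for Notch1 (0.117). The edgeR adjusted p for Heyl was 0.0258 without OSA library 1, 0.0214 with no filter on low counts, 0.0301 after thinning the class to equal totals and 0.0323 with doublets kept, and the other alternatives gave 0.0532 to 0.469. For Notch1 it was 0.0489 without OSA library 2 and 0.0706 to 0.931 otherwise. Hey1 showed the other order in satellite-like cells, with 18.5, 21.6 and 16.3 CPM in the OSA libraries and 9.90 CPM in control 2 (log2 change 0.93 ± 0.46). In fibroblast-like cells Heyl had 13.1, 11.2 and 13.7 CPM in the OSA libraries and 24.5 CPM in control 2 (log2 change -0.90 ± 0.27). All OSA values were thus below the control there. Heyl was below the control in all OSA libraries in tenocyte-like cells too, at 10.6, 11.5 and 11.4 CPM against 31.5 CPM (log2 change -1.40 ± 0.35, edgeR adjusted p = 0.254).

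Among the other Notch ligands and receptors edgeR called none in any vessel class. Notch4, an endothelial receptor, was above the control in all 3 OSA libraries in arterial endothelial-like cells, with 154, 203 and 224 TMM-scaled CPM in the OSA libraries and 129 in control 2 (log2 change 0.58 ± 0.21, edgeR adjusted p = 0.841). Its capillary values were 173, 210 and 240 in the OSA libraries and 151 in control 2. Notch4 was also higher in pericyte-like cells, at 51.8, 52.1 and 64.4 in the OSA libraries and 28.7 in control 2 (log2 change 0.94 ± 0.36). Jag2, a further ligand, had 111, 136 and 160 TMM-scaled CPM in capillary endothelial-like cells of the OSA libraries and 124 in control 2, so its groups overlapped.

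Of the 16 genes for Notch processing and glycosylation, 12 were higher and 4 lower in value in capillary endothelial-like cells (median log2 change 0.16, against 0.02 for all genes), and edgeR called 0, with 3 at an unadjusted p under 0.05. Furin, the protease that cuts Notch receptors during maturation, had 43.3, 55.2 and 64.1 TMM-scaled CPM there in the OSA libraries and 37.4 in control 2 (log2 change 0.53 ± 0.22, edgeR adjusted p = 0.783). Psen2, a catalytic subunit of gamma-secretase, had 25.5, 26.7 and 35.0 in the OSA libraries and 20.6 in control 2. Both were above the control in every OSA library. The counts of higher and lower genes of this list were 10 and 6 in arterial endothelial-like, 9 and 5 in venous endothelial-like, 11 and 5 in lymphatic endothelial-like, 6 and 8 in pericyte-like and 13 and 3 in vascular smooth muscle-like cells. Of the 14 genes of the nuclear complex and its inhibitors, 11 were higher and 3 lower in value in capillary endothelial-like cells (median log2 change 0.07), with none called by edgeR and 1 at an unadjusted p under 0.05. In the other vessel classes 5 were higher and 9 lower in arterial (median -0.07) and likewise in venous endothelial-like cells, 7 and 7 in lymphatic endothelial-like, 4 and 10 in pericyte-like and 6 and 8 in vascular smooth muscle-like cells. Maml3, a co-activator, had 64.0, 55.9 and 51.7 TMM-scaled CPM in capillary endothelial-like cells of the OSA libraries and 82.1 in control 2 (log2 change -0.52 ± 0.17, edgeR adjusted p = 0.627).

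Of the 8 other Notch targets, 6 were higher and 2 lower in value in capillary endothelial-like cells, with a median log2 change of 0.24 and none called by edgeR, and 2 at an unadjusted p under 0.05. Hes1, a transcriptional repressor, had 133, 148 and 161 TMM-scaled CPM in the OSA libraries and 111 in control 2 (log2 change 0.41 ± 0.18, edgeR adjusted p = 0.813). Nrarp, a feedback inhibitor of Notch, had 44.5, 47.6 and 50.03 in the OSA libraries and 35.2 in control 2. Neither gene's groups overlapped. In vascular smooth muscle-like cells 5 of 6 tested targets were lower in value, with a median of -0.25.

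Tip cell genes, which mark the leading cells of a sprout, were lower in value for 10 of 12 in capillary endothelial-like cells (median log2 change -0.22) and for 10 of 11 in arterial endothelial-like cells (median -0.21, against 0.01 for all genes), with none called by edgeR and 2 and 1 genes at an unadjusted p under 0.05. Unc5b, a guidance receptor that is also one of the arterial markers used for naming, had 33.4, 35.2 and 30.7 TMM-scaled CPM in capillary endothelial-like cells of the OSA libraries and 49.9 in control 2 (log2 change -0.59 ± 0.17, edgeR adjusted p = 0.493). Col4a2, a basement membrane collagen, had 1639, 2035 and 2294 in the OSA libraries and 1964 in control 2, so its groups overlapped. Venous endothelial-like cells had 7 of 9 tip cell genes higher in value. Of the 15 dissociation and immediate early genes, 7 were higher and 8 lower in value in capillary endothelial-like and in vascular smooth muscle-like cells, with medians of -0.02, 9 and 6 in arterial and in venous endothelial-like cells, and 8 and 7 in lymphatic endothelial-like cells. In pericyte-like cells 12 were higher and 3 lower (median 0.19). EdgeR and DESeq2 called none of the 15 in any vessel class, and 0 to 3 genes a class had an unadjusted p under 0.05.

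Shares of the vessel classes can set sums over a whole library, and in such sums fewer cells and less RNA per cell cannot be told apart. Among blood endothelial, pericyte-like and smooth muscle-like cells, capillary endothelial-like cells made up 62.2% ± 0.81 (SD, n = 3) in the OSA libraries and 60.9% in control 2 (exact two-sided permutation test, p = 0.5). Vascular smooth muscle-like cells made up 8.50% ± 1.53 (SD, n = 3) in the OSA libraries and 10.5% in control 2 (exact two-sided permutation test, p = 0.5). The p of the arterial, venous and pericyte shares was 1 in the same exact test.

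Across the 14 classes, with libraries summed, the pattern of each gene was set against 7236 other genes by Pearson's r of log2(CPM + 1), as a description. Tie1 was most like Egfl7 (r = 0.996, n = 14 classes), followed by Kank3 and Sox18, and Dll4 most like Podxl (r = 0.989), followed by Nova2 and Clic5. Tek was most like Ramp2 (r = 0.954). Notch3 was nearest to S1pr3 (r = 0.940) and Heyl to Ltbp1 (r = 0.937), while Angpt2 was nearest to Pcp4l1 (r = 0.844), Mical3 and Smtn. Angpt1 was nearest to Sec24a (r = 0.910), Jag1 to Mllt6 (r = 0.904), Notch1 to Rasip1 (r = 0.875) and Hey1 to Arglu1 (r = 0.788). Between the 10 genes, Tie1 and Dll4 had the highest r, 0.972, and Notch3 and Heyl had 0.908. All these points share the same 4 libraries, and the classes differ in depth.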

How the data were processed

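Per the submitters' processing notes, reads were processed with Cell Ranger 9.0.1 on GRCm39 (mm39). The deposited matrices hold whole-number UMI counts per gene and barcode, not normalized. The extract protocol in the labels describes a 10x Genomics droplet library. Control libraries 1 and 3 were not analysed here. The 10 genes and all lists were chosen with earlier results of these data known.

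Barcodes with at least 300 genes, at least 500 UMIs and at most 20% mitochondrial UMIs were kept, Scrublet (through scanpy 1.11.5) marked doublets, which were removed, and 2.84% to 4.01% of the barcodes that passed were so marked. Clusters came from 2000 variable genes, 30 principal components, 15 neighbours and Leiden resolution 1 without the 10 genes and their lists; vessel and mural clusters were clustered again. Sub-clusters with RNA of another lineage, other leading genes or low UMIs were left unnamed. UMIs were summed per library and class (at least 30 cells in each library) and tested with edgeR 4.0.16 (TMM, filterByExpr, quasi-likelihood, Benjamini-Hochberg at 0.05). Differences between classes used limma 3.58.1. DESeq2 1.42.0, other scalings and filters, thinning, kept doublets, other clusterings and leaving out each OSA library were alternatives. The edgeR test was run on simulated data in which the control varied like the OSA libraries, so that assumption itself was not checked. Outside the 10 genes, named genes are those called, the up to 4 most abundant of a list, those of a list at an unadjusted p under 0.05 (named after their values were seen), and the 3 most similar in pattern with at least 50 CPM in a class. Intervals cover counting error only.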

Additional observations from a re-analysis of the deposited data

Results flagged for a closer look

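The OSA effect on Angpt2 differed between classes by -1.96 on the log2 scale, arterial endothelial-like minus vascular smooth muscle-like cells (limma adjusted p = 0.0126), because Angpt2 of the OSA libraries was below the control in the arterial class and above it in the smooth muscle class. The difference kept an adjusted p of 0.00159 to 0.0166 when any single OSA library was left out, and it did not pass without the Fst sub-cluster.

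The OSA effect on Notch3 differed by 1.56 on the log2 scale, venous endothelial-like minus vascular smooth muscle-like cells (limma adjusted p = 0.0411). It rests on 4 Notch3 UMIs in the venous class of control 2, and without OSA library 3 the adjusted p was 0.0741. Both differences come from pairs of classes added after the data had been seen. The arterial side of the Angpt2 difference is low in level, at 7.47, 6.89 and 5.45 CPM in the OSA libraries. Macrophage-like cells, the background class above, had 5.01, 3.63 and 4.09 Angpt2 CPM in the same libraries and 2.29 CPM in control 2. The part of background in the arterial values was not tested. Each group had too few libraries for a check of single outlying samples.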

How the results depend on the processing

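With 1 control library, the spread comes from 3 OSA libraries, and the number of genes called moved widely. Leaving out 1 OSA library gave 48 to 155 called genes in arterial, 106 to 376 in capillary, 44 to 52 in venous and 2 to 141 in lymphatic endothelial-like cells, 10 to 34 in pericyte-like and 54 to 179 in vascular smooth muscle-like cells, where all libraries gave 0, 2, 26, 14, 3 and 20. With DESeq2 the counts were 12, 42, 3, 3, 0 and 7 in the same order of classes. With no filter on low counts they were 60 in arterial, 193 in capillary, 34 in lymphatic endothelial-like, 12 in pericyte-like and 73 in vascular smooth muscle-like cells, and with 10 counts in every library 0 in lymphatic endothelial-like, 1 in pericyte-like and 10 in vascular smooth muscle-like cells. Thinning to equal totals gave 7 in lymphatic endothelial-like and 10 in pericyte-like cells, and keeping doublets gave 6 in lymphatic endothelial-like cells. Vessel sub-clusters at resolution 0.5 gave 6 in arterial and 51 in venous endothelial-like, 6 in pericyte-like and 47 in vascular smooth muscle-like cells, and at resolution 2 they gave 6 in pericyte-like and 13 in vascular smooth muscle-like cells. Clustering with the lists allowed gave 82 in venous endothelial-like, 10 in pericyte-like and 13 in vascular smooth muscle-like cells. The cause of these moves was not tested.

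Of the 10 genes, with no filter on low counts 1 was called in arterial and 2 in capillary endothelial-like cells. Leaving out 1 OSA library gave 0 to 2 of them in arterial and capillary endothelial-like and in vascular smooth muscle-like cells, and 0 to 1 in the differences capillary minus venous, arterial minus venous, capillary minus lymphatic, capillary minus smooth muscle, pericyte minus smooth muscle, venous minus pericyte, venous minus smooth muscle and lymphatic minus smooth muscle. Within the classes, the calls over all genes rose in the same runs, as given above. For the differences, the share of all genes called with 1 library left out is not given here. The counts for the 10 genes are therefore not read as a result about them. The share of capillary endothelial-like cells, OSA minus control, was -0.44 percentage points at resolution 2, against 1.23 in the main clustering.

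Some signs turned, among them those of Angpt2 and Angpt1 in vascular smooth muscle-like cells (0.73 and 0.60 in the whole class). Notch3 in arterial endothelial-like cells had a log2 change of 0.0652 with the lists allowed. With 1 OSA library left out, Tie1 in capillary endothelial-like cells had -0.0642 to 0.10 and Notch1 in venous endothelial-like cells -0.26 to 0.0068. In lymphatic endothelial-like cells Dll4 had 0.0114 with no filter, 0.0369 after thinning and -0.21 to 0.15 with 1 OSA library left out, and Notch1 had 0.0023 with no filter and -0.19 to 0.15 with 1 left out. Without the Fst sub-cluster the vascular smooth muscle-like log2 change was -0.13 for Angpt2 and 0.00066 for Jag1. Inside that sub-cluster alone it was -0.26 for Angpt1, -0.30 for Tie1, 0.0231 for Notch3 and -0.19 for Hey1. Of 858 alternative values, 745 kept their direction and side of the threshold.

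No paired analysis was possible because the groups with a matrix share only replicate number 2. Low counts limit the small classes, among them the venous endothelial-like one.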

Other observations

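Some vessel barcodes outside the named classes also carried these genes. A sub-cluster led by Pgf, Prnd and Kit, left unnamed, had 69.2, 23.8 and 61.1 Angpt2 CPM in the OSA libraries and 36.5 CPM in control 2, so the groups overlapped. A mural sub-cluster led by Colec11 and Postn, left unnamed because more fibroblast than smooth muscle markers met the naming rule there, had 206, 170 and 242 Angpt2 CPM in the OSA libraries and 148 CPM in control 2, without overlap. An arterial sub-cluster led by Gkn3, Cytl1 and Clu had 96.6, 116 and 197 Jag1 CPM in the OSA libraries and 74.8 CPM in control 2. In venous endothelial-like cells, where most tested tip cell genes were higher in value (7 of 9, median log2 change 1.80), Lamb1, a laminin subunit, had 44.5, 43.8 and 79.1 TMM-scaled CPM in the OSA libraries and 15.9 in control 2 (log2 change 1.85 ± 0.51, edgeR adjusted p = 0.0883). These sub-clusters and genes were picked after their values were seen.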
